A study of Homo sapiens with 8 samples.

Results

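Interleukins, chemokines and the receptors that bind them were read out by poly(A) RNA-seq in PC3 and LNCaP, a pair of cell lines from human prostate cancers, each overexpressing the microRNA miR-375 or serving as its control. The genes were taken by name: symbols that begin with CXCL, CCL, CXCR, CCR, CX3CL or IL followed by a number, without symbols that hold a hyphen or end in P, and with at least 10 counts summed over the 8 libraries. Of 160 symbols with such a beginning, 140 were left after the name rule and 93 reached the minimum count, out of 60622 genes in the table. The 4 groups were PC3 with miR-375 overexpressed, PC3 control, LNCaP with miR-375 overexpressed and LNCaP control, with 2 libraries each. PC3 came from a bone metastasis and lacks androgen receptor signalling, and LNCaP came from a lymph node metastasis and responds to androgen. The means and duration of the overexpression and the nature of the controls were not given in the sources used here. PC3 grew in 20% and LNCaP in 10% fetal bovine serum, so line and serum cannot be told apart wherever the lines are compared. No label ties the 2 libraries of a group to separate cultures, and p-values therefore measure only how far these particular libraries spread, which may be a technical spread.

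Chemokines are small secreted proteins that draw leukocytes along a gradient by binding seven-transmembrane receptors on the leukocyte. The chemokines of the CXC class with a glutamate-leucine-arginine (ELR) motif before the first cysteines attract neutrophils through CXCR1 and CXCR2. Interleukins act through receptor chains that signal mostly through MyD88 and NF-kB (the interleukin-1 family), Act1 (the interleukin-17 family) or JAK kinases and STAT proteins (the interleukin-6, common-gamma and interleukin-10 families). Carcinoma cells of the prostate can make several of these ligands themselves, and the ELR chemokines and interleukin-6 are best known among them. The design asks which of the genes changed with miR-375 in each line and whether the change differed between the lines.

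miR-375 acts by pairing its seed, bases 2 to 8, with messenger RNAs. The mature strand is shown because the sites looked for in the listed genes follow from it. It is encoded at chr2:219001648-219001669 on the minus strand (RefSeq, GRCh38.p14), and the seed is in capitals.
hsa-miR-375-3p: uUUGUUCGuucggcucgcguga

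The name rule fixed what was counted. It left out 3 protein-coding genes of these families because their symbols end in P, of which IL1RAP, the shared co-receptor of the interleukin-1 family, had 6045 counts over the 8 libraries, IL18BP, the secreted interleukin-18 binding protein, 2060 and IL18RAP 8. It took in CCR5AS, an antisense transcript, and IL4I1, an amino acid oxidase named for its induction by interleukin-4. Just inside the minimum stood CCL7, CCR2, CCR4, CXCL17 and IL10RA with 10 counts each, and just outside it CXCL9 and CXCR3 with 8. At a minimum of 50 counts 71 genes were left. A filter on low counts kept 73 of the 93 for testing. The other 20 were CCL7, CCL22, CCL24, CXCL12, CXCL17, CCR2, CCR4, CXCR1, CXCR2, IL5, IL5RA, IL9R, IL10RA, IL12RB2, IL13, IL17B, IL17REL, IL1F10, IL26 and IL34, none of which exceeded 0.691 CPM, counts scaled by library depth, in any library.

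Library totals ran from 41662584 to 41728025 counts in PC3 with miR-375, from 40245979 to 41890528 in the PC3 controls, from 33973861 to 34857651 in LNCaP with miR-375 and from 34072786 to 35689829 in the LNCaP controls. Of 10 markers listed for each line, 9 were higher in PC3 controls for PC3 (all but KRT5) and 10 in LNCaP controls for LNCaP. The PC3 list includes IL6, itself among the genes taken by the name rule. The markers of both lists moved with miR-375 as well. In PC3, IL6 was the only PC3 marker that rose, and 7 fell. The PC3 markers summed there to 1855 to 1864 CPM with miR-375 and 3159 to 3164 CPM in the controls. In LNCaP, 2 of the LNCaP markers rose and 5 fell, with sums of 5041 to 5195 CPM with miR-375 and 6416 to 6436 CPM in the controls. The summed level of 15 leukocyte markers lay between 5.6 and 5.98 CPM in PC3 with miR-375, 3.63 and 4.07 in the PC3 controls, 2.22 and 2.41 in LNCaP with miR-375, and 1.12 and 1.35 in the LNCaP controls. The T cell and B cell markers CD3D and MS4A1 had 0 counts in all 8 libraries, and the highest of the list was CSF1R, at 1.81 CPM on average in PC3 with miR-375. Of the counts from 1 to 20 in a library, 68.1% to 70.3% were even, and whether both mates of a pair were counted is not stated. A limit for a count of 0 is set at 3 counts per library; at 6 counts the lower bounds given below for such genes would be 2.49-fold for IL6, 26.4-fold for IL36RN and 822-fold for CXCL6. In bulk RNA, fewer cells of a kind and less RNA per cell cannot be told apart.

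Levels below are CPM on library sizes scaled by the trimmed mean of M-values (TMM), given for the first and then the second library of a group. Changes are log2 fold changes ± SE from edgeR's quasi-likelihood fit of all 8 libraries. A gene is said to rise or fall, or to be higher or lower, where its Benjamini-Hochberg adjusted p over 21066 tested genes was under 0.05, and every adjusted p is from that test unless another tool is named.

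In PC3, more of the ligands were higher than lower with miR-375, and the receptors moved about evenly in both directions, as did all tested genes. Of the 73 tested genes 25 (34.2%) rose and 11 (15.1%) fell, where 22.2% of all tested genes rose and 20.8% fell. At least 2-fold rises were seen for 16 of the 73 (21.9%, against 6.92% of all tested genes) and at least 2-fold falls for 2 (2.74%, against 3.65%). The median change was 0.35 over the 73 genes and 0.022 over all tested genes. Among 37 ligands 15 rose and 3 fell, and among 34 receptors 9 rose and 8 fell. These counts are to be read beside the shares of all tested genes, 22.2% and 20.8%. The 15 ligands include all 6 ELR chemokines, which lie in the same gene cluster. In LNCaP 12 of the 73 rose (16.4%, against 13.9% of all tested genes) and 4 fell (5.48%, against 18.7%), with 4 rises and 3 falls of at least 2-fold (5.48% and 4.11%, against 2.41% and 2.21% of all tested genes). The median change in LNCaP was 0.10 over the 73 genes and 0 over all tested genes. Trace genes weigh on the LNCaP count, since only 33 of the 73 reached 1 CPM in a LNCaP group, and 11 of those rose and 2 fell. All tested genes were not counted at 1 CPM or more, so the shares above, which include trace genes, are no match for these 33. CCL8, IL17C and IL36RN had no counts in PC3, and IL7 and IL1RAPL2 none in LNCaP, so these stand among the tested genes without a change to test in that line.

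**Figure D1:**
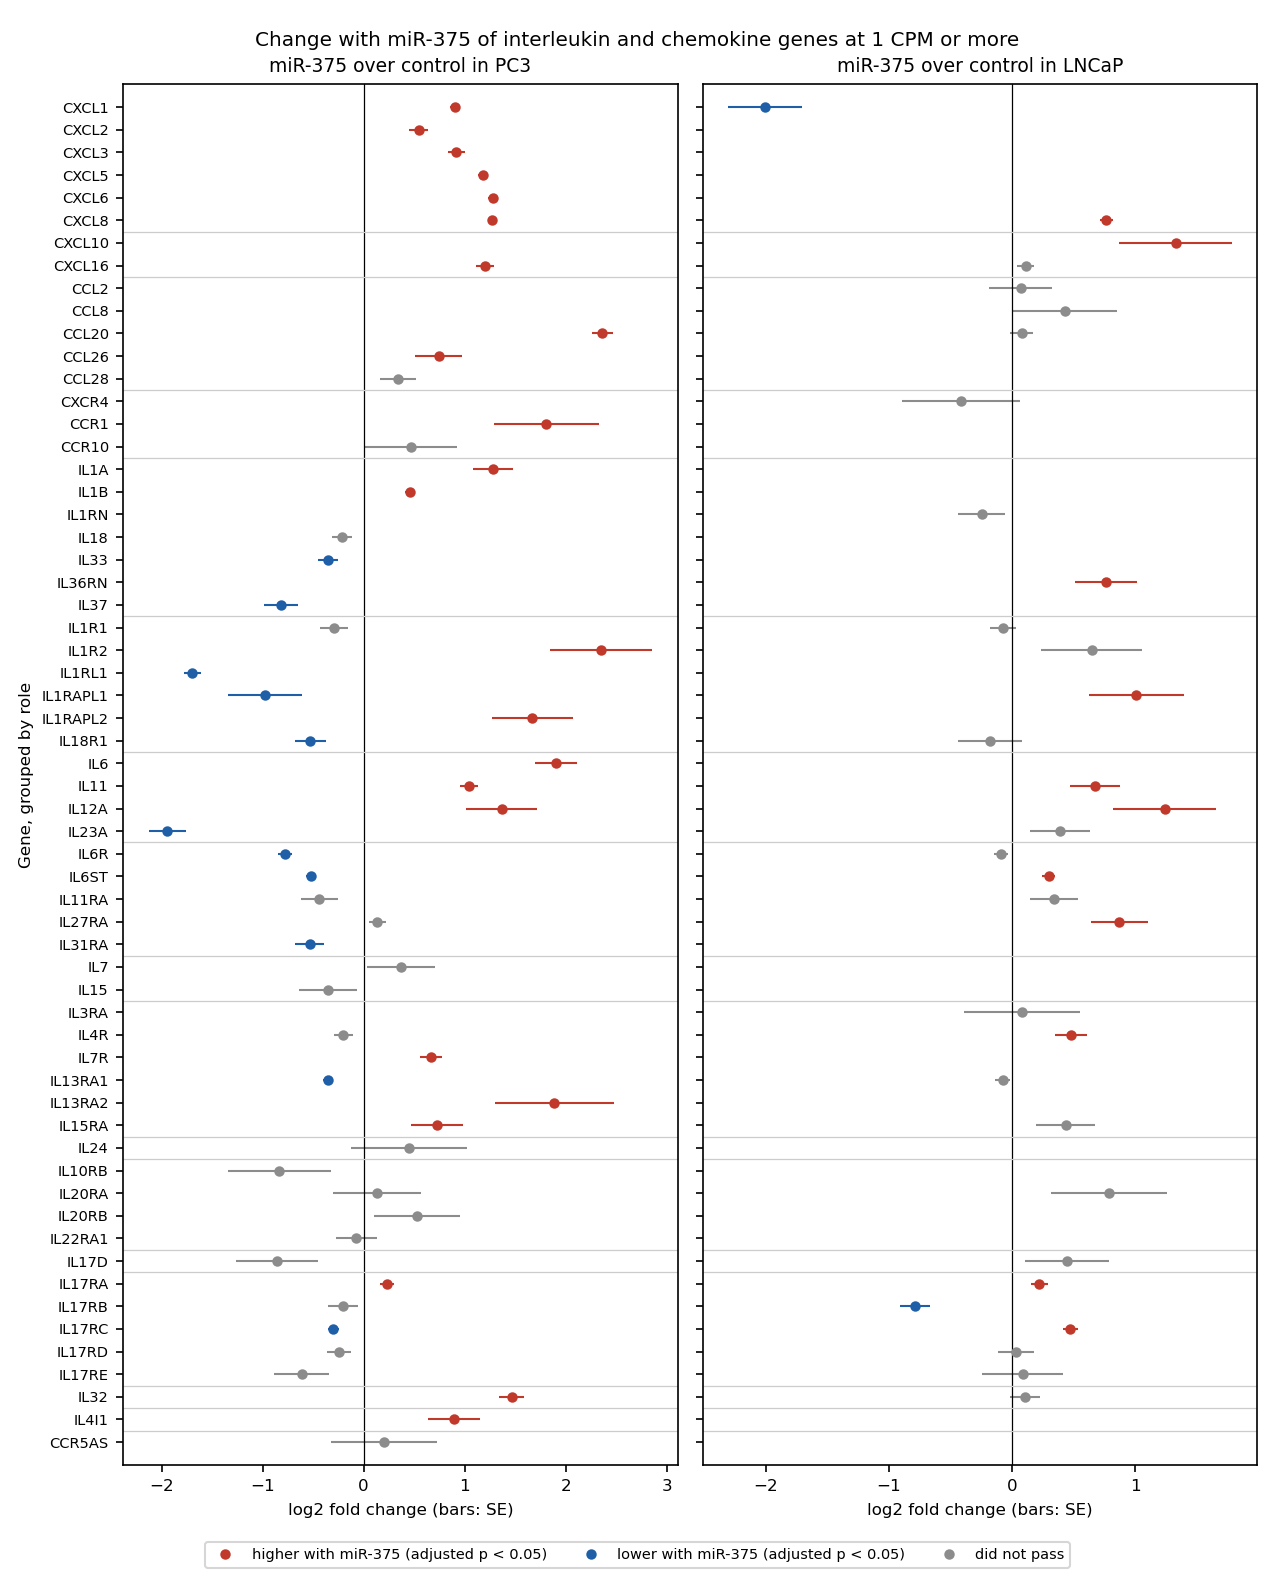
Log2 fold change of miR-375 over control in PC3 (left) and LNCaP (right) for each gene with a mean of 1 CPM or more in a group of that line, grouped by role with grey lines between roles; bars are SE from edgeR, red marks genes that rose, blue genes that fell and grey genes that did not pass. In PC3 all 6 ELR chemokines lie to the right of 0 and IL23A and IL1RL1 lie farthest to the left, while in LNCaP the points are fewer and CXCL1 lies farthest to the left.

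All 6 ELR chemokines rose with miR-375 in PC3, by 1.46-fold to 2.42-fold. CXCL8, interleukin-8, stood at 729 and 729 CPM with miR-375 and 305 and 302 CPM in the controls (1.27 ± 0.035, adjusted p = 1.84e-26). CXCL6 had 370.5 and 352 CPM with miR-375 and 151 and 147 CPM in the controls (1.28 ± 0.044, adjusted p = 4.14e-23). These 2 changed almost equally, and both miR-375 libraries lay above both controls. CXCL5 had 235 and 224 CPM with miR-375 and 98.4 and 104 CPM in the controls (1.18 ± 0.050, adjusted p = 4.26e-21). CXCL1 had 321 and 334 CPM with miR-375 and 175 and 175 CPM in the controls (0.91 ± 0.047, adjusted p = 1.99e-18). CXCL1 is the founding member of the GRO group, to which CXCL2 and CXCL3 also belong. CXCL3 had 78.1 and 76.3 CPM with miR-375 and 40.2 and 41.6 CPM in the controls (0.92 ± 0.084, adjusted p = 1.27e-11). CXCL2 changed least of the 6, with 39.7 and 41.3 CPM with miR-375 and 28.8 and 26.7 CPM in the controls (0.55 ± 0.094, adjusted p = 7.58e-06). For none of the 6 did the groups overlap. How many of all tested genes also had no overlap was not counted. Here and elsewhere a lack of overlap between groups of 2 libraries is a description only and adds no support to a call. Near-identical stretches join CXCL1, CXCL2 and CXCL3, and CXCL5 and CXCL6, so how reads were split within these sets is uncertain, and exons of CXCL6 overlap the pseudogene PPBPP1 on the same strand. CXCR1 and CXCR2, the receptors of these chemokines, had 0 counts in all 4 PC3 libraries, which allows up to 0.0779 CPM in a library at a limit of 3 counts.

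The 6 genes lie in a cluster on chromosome 4 (GRCh38, GENCODE v29), from CXCL8 (73740506 to 73743716, plus strand) through CXCL6 (73836497 to 73849064, plus), CXCL1 (73869393 to 73871242, plus), CXCL5 (73995642 to 73998779, minus) and CXCL3 (74036589 to 74038807, minus) to CXCL2 (74097035 to 74099293, minus). Their promoters are shown because all 6 rose in the same cells and all 6 hold the same short motif close to the start. The letters searched were GGNNTTTCC, on both strands, a core of the kappaB element that NF-kB proteins bind. The 120 bases before the RefSeq start (GRCh38.p14) are given with matches in capitals, and CCL20 and IL6, which rose most among the chemokines and the interleukin-6 family ligands of 1 CPM or more in PC3, are set below them. The RefSeq start can lie some bases from the first base of the GENCODE gene.
CXCL8 (chr4:73740449-73740568, plus strand): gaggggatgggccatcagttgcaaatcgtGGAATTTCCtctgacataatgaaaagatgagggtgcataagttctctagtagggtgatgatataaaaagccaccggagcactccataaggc
CXCL6 (chr4:73836558-73836677, plus strand): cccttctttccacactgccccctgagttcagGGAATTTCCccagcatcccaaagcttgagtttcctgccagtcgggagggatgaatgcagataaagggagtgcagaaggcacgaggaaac
CXCL5 (chr4:73998678-73998797, minus strand): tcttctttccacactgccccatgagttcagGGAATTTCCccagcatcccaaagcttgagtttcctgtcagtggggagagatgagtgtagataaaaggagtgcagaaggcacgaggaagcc
CXCL1 (chr4:73869273-73869392, plus strand): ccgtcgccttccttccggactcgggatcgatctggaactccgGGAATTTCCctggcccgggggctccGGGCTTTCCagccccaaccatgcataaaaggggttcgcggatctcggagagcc
CXCL2 (chr4:74099196-74099315, minus strand): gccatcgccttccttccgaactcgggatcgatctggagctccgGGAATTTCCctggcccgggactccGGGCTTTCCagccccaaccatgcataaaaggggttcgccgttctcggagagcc
CXCL3 (chr4:74038690-74038809, minus strand): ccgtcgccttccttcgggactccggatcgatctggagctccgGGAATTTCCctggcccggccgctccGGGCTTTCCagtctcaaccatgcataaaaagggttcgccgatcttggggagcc
CCL20 (chr2:227813722-227813841, plus strand): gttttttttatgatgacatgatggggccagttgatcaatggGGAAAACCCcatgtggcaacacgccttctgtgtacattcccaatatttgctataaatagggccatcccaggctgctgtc
IL6 (chr7:22727080-22727199, plus strand): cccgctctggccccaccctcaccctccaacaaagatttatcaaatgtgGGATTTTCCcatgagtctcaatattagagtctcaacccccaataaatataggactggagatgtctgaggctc

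The match began 91 bases before the start in CXCL8, 89 in CXCL6 and 90 in CXCL5. CXCL1 held matches at 78 and 53 bases, CXCL3 also at 78 and 53, and CXCL2 at 77 and 53. In IL6 it began 72 bases before the start, and in CCL20, on the opposite strand, 79 bases. Over the full window of 250 bases before to 50 after the start, CXCL5 and CXCL6 were 83.1% identical, CXCL1 and CXCL3 82.5%, and CXCL8 was 45.2% to 48% identical with the other 5. Of the 93 genes 76 had a window in the RefSeq table, and 20 of these (26.3%) held the motif, against 7.61% of 27305 genes with a window. By call in PC3, the motif was present in 10 of 22 genes that rose (45.5%), 2 of 10 that fell (20%), 7 of 26 that did not pass (26.9%) and 1 of 18 that were not tested (5.56%). Besides the 8 genes printed, the risen genes with a match were IL32 and IL1R2. The 10 risen genes with a match thus include all 6 ELR chemokines, which lie in the same cluster. They are not independent cases, and the share of 45.5% leans on that cluster. For comparison, TGANTCA, a core of the AP-1 element, was held by 4 of the 22 risen genes (18.2%) and 9.37% of all genes. In the other calls it was in 3 of 10 fallen (30%), 5 of 26 not passing (19.2%) and 7 of 18 untested genes (38.9%). Among all 76 genes with a window 19 held it (25%), a larger share than among the risen. TTGCNNAA, a core of the C/EBP element, was held by 5 of the 22 (22.7%) and 12.7% of all genes. It was in 1 of 10 fallen (10%), 4 of 26 not passing (15.4%), 2 of 18 untested (11.1%) and 12 of all 76 (15.8%). No match of one motif overlapped a match of another in these windows. A match is a run of letters and no evidence of binding, and which genes hold it was counted with their changes already known.

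**Figure D2:**
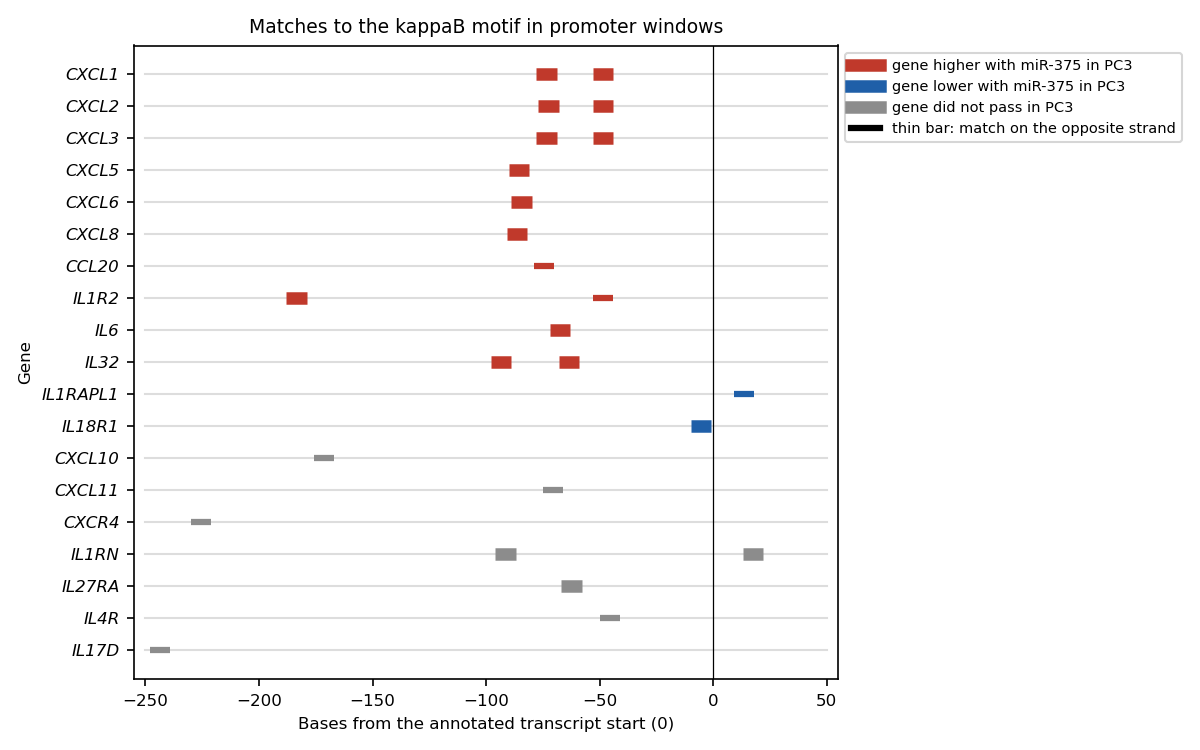
Position of each match to the kappaB motif in the promoter windows of the 19 tested genes that held a match, in bases from the RefSeq start (x axis), with thick bars for matches on the gene's own strand and thin bars for the opposite strand. Red genes rose with miR-375 in PC3, blue genes fell and grey genes did not pass; the 6 ELR chemokines have a match from 77 to 91 bases before the start, and CXCL1, CXCL2 and CXCL3 have another at 53.

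Among the other chemokines, CCL20, CXCL16 and CCL26 rose with miR-375 in PC3. CCL20, the ligand of CCR6 on dendritic cells and T cells, had 34.5 and 32.3 CPM with miR-375 and 5.97 and 7.06 CPM in the controls (2.36 ± 0.10, adjusted p = 1.58e-20). This was a 5.13-fold rise, larger than that of any ELR chemokine. CXCL16, a transmembrane chemokine that binds CXCR6, had 17.6 and 18.3 CPM with miR-375 and 7.94 and 7.71 CPM in the controls (1.20 ± 0.087, adjusted p = 2.80e-14). Its exons overlap MED11 on the other strand. CCL26, eotaxin-3, had 7.31 and 7.33 CPM with miR-375 and 5.22 and 3.53 CPM in the controls (0.74 ± 0.23, adjusted p = 0.00888). The CCL26 call ended when the second PC3 control was left out (0.48 on the log2 scale, adjusted p = 0.183) or either miR-375 library (0.0539 and 0.0561). CCL28, a mucosal chemokine for CCR10 and CCR3, had 9.98 and 10.2 CPM with miR-375 and 8.74 and 7.19 CPM in the controls and did not pass (0.34 ± 0.18, adjusted p = 0.132). CCL2, CCL5, CCL25, CX3CL1, CXCL10 and CXCL11 stayed below 1 CPM in every PC3 library and did not pass there.

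**Figure D3:**
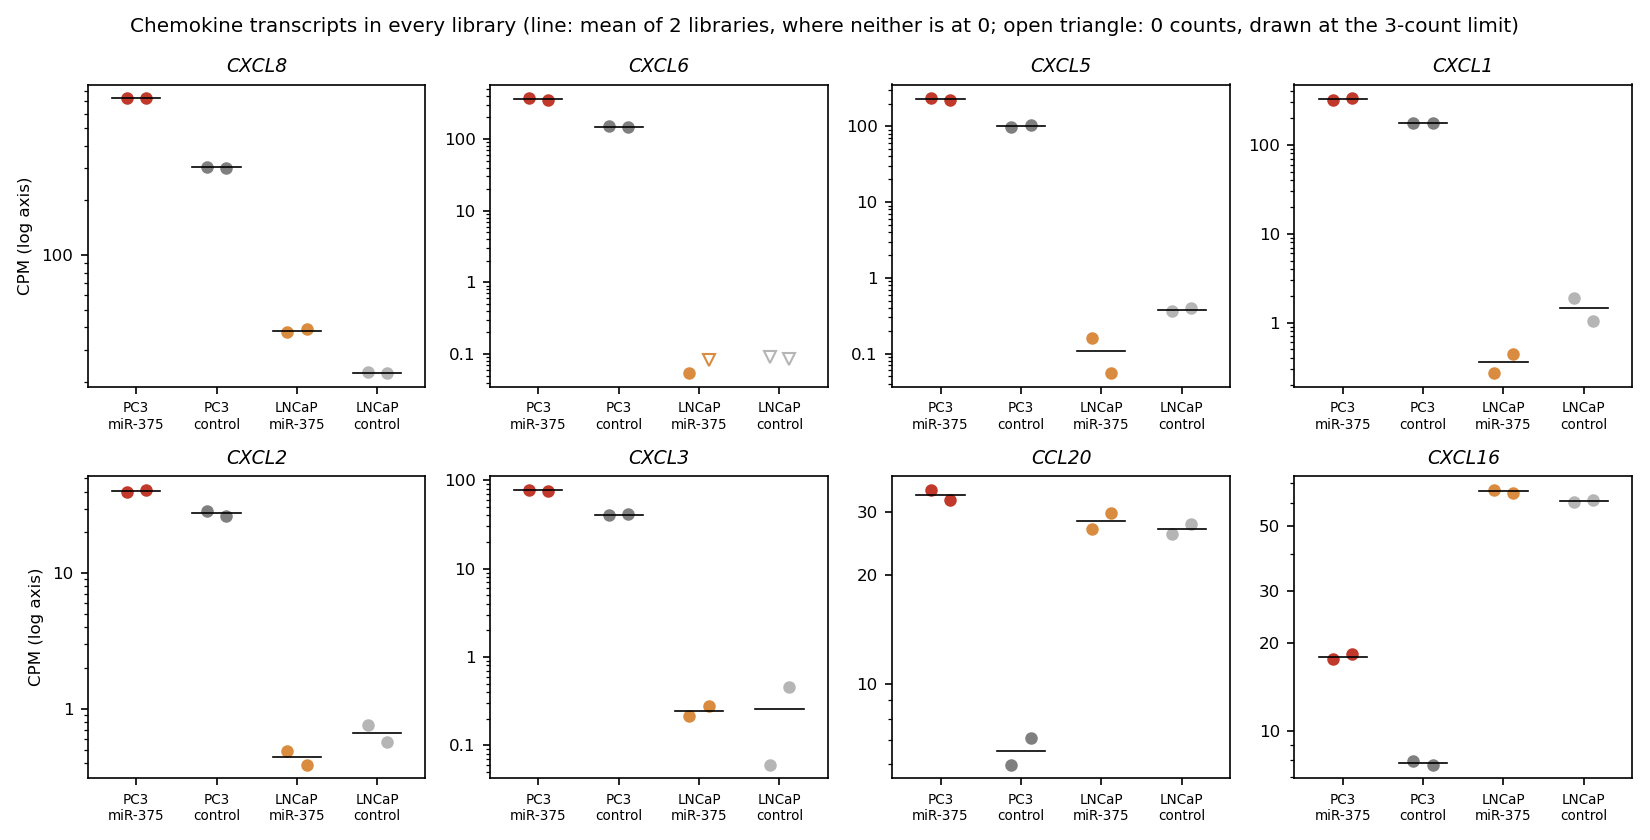
Level in CPM (y axis, log scale, a different range in each panel) of 8 chemokine genes in each of the 8 libraries, grouped as PC3 miR-375, PC3 control, LNCaP miR-375 and LNCaP control; short lines are means of the 2 libraries where neither is at 0, and open triangles mark 0 counts, drawn at the limit of 3 counts. In PC3 the miR-375 libraries lie above the controls in all 8 panels, and in LNCaP CXCL8 lies higher with miR-375, CCL20 and CXCL16 did not pass and the other 5 lie below 2 CPM.

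Chemokine receptors were scarce. CCR1, a receptor for CCL5 and related CC chemokines, was the only one that rose in PC3, with 2.60 and 1.90 CPM with miR-375 and 0.349 and 0.934 CPM in the controls (1.81 ± 0.52, adjusted p = 0.00428). Its call ended with DESeq2 (adjusted p = 0.376) and when the first PC3 control or the first PC3 miR-375 library was left out (both 0.0769). CCR10 had 1.29 and 1.59 CPM with miR-375 and 1.35 and 0.727 CPM in the controls, and these overlapped. CCR3, CCR7, CXCR4 and CXCR6 lay below 1 CPM in PC3 and did not pass, and the antisense transcript CCR5AS had 0.977 and 1.28 CPM with miR-375 and 0.974 and 0.986 CPM in the controls (0.20 ± 0.52). CCR6, the receptor of CCL20, had 0 counts over all 8 libraries.

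In the interleukin-1 family the interleukin-1 agonists IL1A and IL1B rose in PC3 while IL33, its receptor chain IL1RL1, and IL37 fell. IL1B, interleukin-1 beta, was the most abundant of the 93 genes per length in PC3, at 356 CPM per kilobase of exon with miR-375 and 259 in the controls, ahead of CXCL8 at 321 with miR-375 and CXCL1 at 135 in the controls. IL1B had 1097 and 1105 CPM with miR-375 and 799 and 806 CPM in the controls (0.46 ± 0.050, adjusted p = 3.01e-07), but did not pass with DESeq2 (adjusted p = 0.707). IL1A, interleukin-1 alpha, had 12.6 and 11.7 CPM with miR-375 and 4.24 and 5.79 CPM in the controls (1.28 ± 0.20, adjusted p = 1.23e-06). IL1A and IL1B were both higher in both miR-375 libraries than in either control. IL33, an alarmin released from damaged cells, had 32.2 and 32.4 CPM with miR-375 and 42.6 and 40.00 CPM in the controls (−0.36 ± 0.10, adjusted p = 0.00344), a call that ended without the first PC3 control (0.0549). IL37, which dampens inflammatory responses, had 8.38 and 7.74 CPM with miR-375 and 13.8 and 14.6 CPM in the controls (−0.82 ± 0.17, adjusted p = 8.65e-05). IL18, which like IL1B is matured by caspase-1, had 35.5 and 36.6 CPM with miR-375 and 38.3 and 45.2 CPM in the controls and did not pass (−0.21 ± 0.10, adjusted p = 0.0788). IL1RN, the receptor antagonist, and IL36G stayed below 1 CPM in PC3.

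Receptors of the family moved in both directions in PC3. IL1RL1, the ST2 receptor of interleukin-33, had 24.8 and 24.1 CPM with miR-375 and 78.2 and 80.0 CPM in the controls (−1.69 ± 0.085, adjusted p = 8.88e-19), a 3.24-fold fall with no overlap. IL18R1, the interleukin-18 receptor, had 9.29 and 8.85 CPM with miR-375 and 12.2 and 13.9 CPM in the controls (−0.53 ± 0.15, adjusted p = 0.00412). Exons of IL18R1 and IL1RL1 overlap on the same strand, so their counts may not be independent, and the IL18R1 call ended without the second PC3 control (0.0721). IL1R2, a decoy receptor that binds interleukin-1 without signalling, had 0.929 and 1.31 CPM with miR-375 and 0.200 and 0.234 CPM in the controls (2.35 ± 0.51, adjusted p = 0.000204). The signalling receptor IL1R1 had 5.48 and 4.75 CPM with miR-375 and 5.49 and 7.03 CPM in the controls and did not pass (−0.29 ± 0.14, adjusted p = 0.0860). Thus the decoy was higher at a low level, and the signalling chain was not distinguished from its control. IL1RAPL2 and IL1RAPL1, co-receptor-like genes known from neurons, moved oppositely. IL1RAPL2 had 2.91 and 2.94 CPM with miR-375 and 0.774 and 1.06 CPM in the controls (1.67 ± 0.40, adjusted p = 0.000795). IL1RAPL1 had 1.10 and 0.973 CPM with miR-375 and 1.80 and 2.28 CPM in the controls (−0.98 ± 0.36, adjusted p = 0.0271), and its call ended with DESeq2 (0.0609) and in 3 of the 4 fits that left out a PC3 library (from 0.0654 to 0.159). IL1RAP, left out by the name rule and named here after its values were seen, had 25.8 and 25.2 CPM with miR-375 and 34.5 and 31.8 CPM in the controls (−0.38 ± 0.092, adjusted p = 0.000733).

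In the interleukin-6 family, the ligands IL6 and IL11 rose in PC3, and the receptor chains IL6ST, IL6R and IL31RA fell. IL6 had 11.4 and 10.99 CPM with miR-375 and 2.92 and 3.06 CPM in the controls (1.90 ± 0.21, adjusted p = 1.23e-09), a 3.74-fold rise. Its exons overlap STEAP1B and an antisense transcript on the other strand. IL11, which shares the signal-transducing chain with IL6, had 56.7 and 52.2 CPM with miR-375 and 25.3 and 27.6 CPM in the controls (1.04 ± 0.090, adjusted p = 3.13e-12). IL6ST, that shared chain (gp130), had 256 and 256 CPM with miR-375 and 369.8 and 367 CPM in the controls (−0.52 ± 0.044, adjusted p = 4.76e-12). IL6R, the interleukin-6 binding chain, had 21.0 and 20.9 CPM with miR-375 and 35.5 and 36.4 CPM in the controls (−0.78 ± 0.067, adjusted p = 2.68e-12). Both chains thus stood lower in every miR-375 library than in any control, by 1.44-fold and 1.71-fold. IL31RA, which binds interleukin-31, had 11 and 11.3 CPM with miR-375 and 15.8 and 16.6 CPM in the controls (−0.53 ± 0.15, adjusted p = 0.00282). IL11RA, which binds interleukin-11, had 4.43 and 4.13 CPM with miR-375 and 6.12 and 5.48 CPM in the controls and did not pass (−0.44 ± 0.19, adjusted p = 0.0566). Its exons overlap GALT and CCL27. IL27RA, a receptor chain of interleukin-27, had 42.2 and 44.1 CPM with miR-375 and 38.7 and 39.8 CPM in the controls and did not pass either (0.14 ± 0.085, adjusted p = 0.204).

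IL23A and IL12A, alpha subunits of the interleukin-12 family, moved apart in PC3. IL23A, the p19 subunit of interleukin-23, had 3.33 and 3.11 CPM with miR-375 and 11.96 and 12.8 CPM in the controls (−1.94 ± 0.19, adjusted p = 3.93e-11), the largest fall among the 11 genes that fell. IL12A, the p35 subunit shared by interleukin-12 and interleukin-35, had 2.60 and 2.61 CPM with miR-375 and 0.799 and 1.22 CPM in the controls (1.37 ± 0.35, adjusted p = 0.00158). The subunit IL12B, with which both pair to form interleukin-23 and interleukin-12, had 2 counts over all 8 libraries. IL27, another subunit of the family, did not exceed 0.0475 CPM in PC3. Antisense transcripts overlap exons of IL6ST and IL12A, as they do exons of IL4R, IL1R1 and IL17RB, and the strand setting of the counting was among the steps not given, so these counts are uncertain to that extent.

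**Figure D4:**
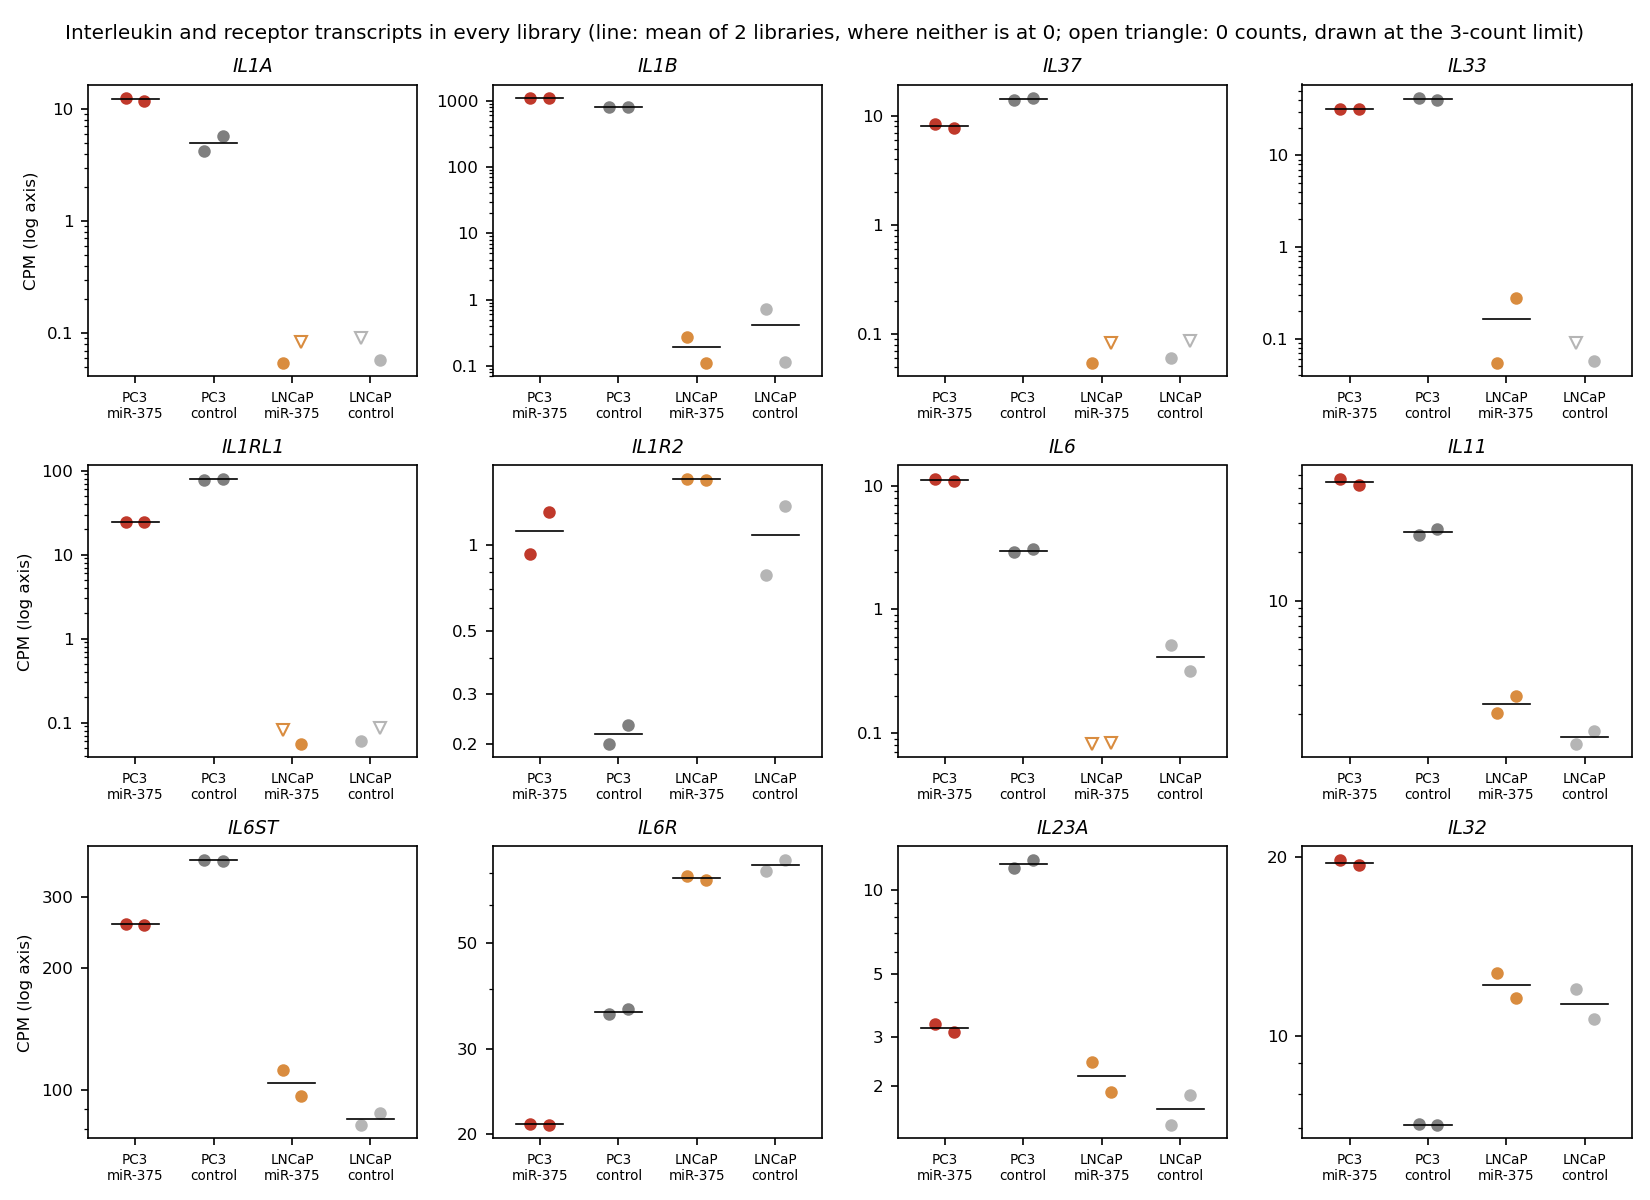
Level in CPM (y axis, log scale, a different range in each panel) of 12 interleukin and receptor genes in each library, drawn as for the chemokines. In PC3, IL1A, IL1B, IL1R2, IL6, IL11 and IL32 lie higher with miR-375 and IL37, IL33, IL1RL1, IL6ST, IL6R and IL23A lower; in LNCaP, IL6 has 0 counts in both miR-375 libraries and IL6ST lies higher with miR-375.

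Of the common-gamma, interleukin-3, interleukin-4 and interleukin-13 families, 5 of 8 tested receptors rose and 1 fell in PC3, and neither of the 2 tested ligands passed. IL7R, the interleukin-7 receptor, had 45.4 and 37.9 CPM with miR-375 and 26.0 and 26.5 CPM in the controls (0.67 ± 0.11, adjusted p = 2.18e-06). IL13RA1, which pairs with IL4R, had 104 and 96.1 CPM with miR-375 and 128 and 128 CPM in the controls (−0.35 ± 0.053, adjusted p = 8.28e-07). IL13RA2, a decoy for interleukin-13, had 1.55 and 1.47 CPM with miR-375 and 0.499 and 0.311 CPM in the controls (1.89 ± 0.59, adjusted p = 0.00865), and its call ended without the second PC3 control (0.0656) or the first PC3 miR-375 library (0.0578). For interleukin-13 the decoy was thus higher, at a low level, and the abundant signalling chain lower. IL15RA, which presents interleukin-15, had 3.02 and 2.87 CPM with miR-375 and 1.65 and 1.92 CPM in the controls (0.72 ± 0.26, adjusted p = 0.0198), a call that ended without the first PC3 control (0.123) or the first PC3 miR-375 library (0.0794). IL4R had 28.6 and 33.9 CPM with miR-375 and 38.5 and 33.3 CPM in the controls, which overlapped (−0.20 ± 0.095, adjusted p = 0.0854). IL2RG and IL3RA rose at trace levels, with 0.453 and 0.403 CPM with miR-375 and 0.0749 and 0 CPM in the controls for IL2RG (3.38 ± 1.19), and 0.333 and 0.309 CPM with miR-375 and 0.0499 and 0.0260 CPM in the controls for IL3RA (2.97 ± 0.85). IL15 had 2.72 and 2.61 CPM with miR-375 and 3.42 and 3.40 CPM in the controls, and IL7 had 2.55 and 3.16 CPM with miR-375 and 1.80 and 2.62 CPM in the controls; neither passed. IL2RB did not exceed 0.344 CPM in any library and passed in neither line.

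Of the interleukin-17 receptors 1 rose and 1 fell in PC3. IL17RA, the chain common to the family, had 51.1 and 50.3 CPM with miR-375 and 42.4 and 44.0 CPM in the controls (0.23 ± 0.066, adjusted p = 0.00418), which ended without the first PC3 control (0.0518). IL17RC, its partner for interleukin-17A, had 95.2 and 92.6 CPM with miR-375 and 113 and 118 CPM in the controls (−0.30 ± 0.051, adjusted p = 6.36e-06). IL17RB, IL17RD and IL17RE, all between 2 and 22 CPM in PC3, did not pass, with changes of −0.20, −0.24 and −0.61. The ligand IL17D had 0.786 and 0.403 CPM with miR-375 and 1.40 and 0.753 CPM in the controls and did not pass (−0.85 ± 0.41). No tested gene of the interleukin-10 family passed in PC3: IL22RA1, the interleukin-22 receptor, had 6.65 and 6.22 CPM with miR-375 and 6.81 and 6.70 CPM in the controls, and IL10RB, IL20RA, IL20RB and IL24 lay between 0.572 and 1.73 CPM in all PC3 libraries.

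Outside these families, IL32, a cytokine that induces other inflammatory cytokines, had 19.8 and 19.4 CPM with miR-375 and 7.11 and 7.09 CPM in the controls (1.46 ± 0.12, adjusted p = 8.72e-13), a 2.76-fold rise. IL4I1 had 4.88 and 5.41 CPM with miR-375 and 2.25 and 3.30 CPM in the controls (0.89 ± 0.25, adjusted p = 0.00379). Its exons overlap NUP62 and ATF5, and its call ended without the first PC3 control (0.0925). IL16 stayed under 0.1 CPM in PC3.

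In LNCaP the chemokines CXCL8 and CXCL10 rose, CXCL1 fell at a low level, and CXCL5 and CCL25 changed at trace levels. With total-count scaling the median change of all tested genes in LNCaP stood at 0.12, against 0 with TMM, and every change said to have passed in LNCaP was larger than that in size. CXCL8 had 37.5 and 38.9 CPM with miR-375 and 22.6 and 22.3 CPM in the controls (0.77 ± 0.051, adjusted p = 7.10e-15). CXCL1 had 0.271 and 0.443 CPM with miR-375 and 1.87 and 1.03 CPM in the controls (−2.01 ± 0.30, adjusted p = 1.04e-06), and CXCL5 0.163 and 0.0554 CPM with miR-375 and 0.363 and 0.401 CPM in the controls (−1.77 ± 0.51, adjusted p = 0.00629). The groups of both genes did not overlap, at levels near or below 1 CPM. CXCL2 and CXCL3 lay below 1 CPM and did not pass, and CXCL6 had 1 library with a count above 0. CXCL10, an interferon-induced ligand of CXCR3, had 2.98 and 2.94 CPM with miR-375 and 1.09 and 1.26 CPM in the controls (1.33 ± 0.46, adjusted p = 0.0219). Its call ended with DESeq2 (0.495) and in each fit that left out a LNCaP library (from 0.0829 to 0.134).

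CCL20 and CXCL16, which rose in PC3, were not distinguished from control in LNCaP. CCL20 had 26.9 and 29.8 CPM with miR-375 and 26.0 and 27.7 CPM in the controls (0.078 ± 0.091, adjusted p = 0.581). CXCL16, the most abundant of the 93 per length in LNCaP, had 66.4 and 64.9 CPM with miR-375 and 60.3 and 61.4 CPM in the controls (0.11 ± 0.066, adjusted p = 0.220). Per kilobase of exon it stood at 23.5 CPM with miR-375 and 21.8 in the controls, ahead of CCL20 at 17.8 with miR-375 and 16.9 in the controls. CCL2, the monocyte chemoattractant, had 5.75 and 5.98 CPM with miR-375 and 5.62 and 5.56 CPM in the controls, and CCL8 2.44 and 2.10 CPM with miR-375 and 2.30 and 1.09 CPM in the controls; neither passed. CCL25, a ligand of CCR9, had traces of 0.163 and 0.111 CPM with miR-375 and 0 counts in both controls (adjusted p = 0.0269), too few to bound the fold. No chemokine receptor passed in LNCaP, and CXCR4, the receptor of CXCL12, had 0.976 and 0.609 CPM with miR-375 and 0.967 and 1.15 CPM in the controls.

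In the interleukin-6 and interleukin-12 families of LNCaP, IL6 fell and IL6ST rose, each opposite to its change in PC3, while IL11, IL12A and IL27RA rose. IL6 had 0 counts in both miR-375 libraries, against 17 and 11 counts (0.514 and 0.315 CPM) in the LNCaP controls, and was at least 4.99-fold lower at a limit of 3 counts per library (adjusted p = 1.29e-05). IL6ST had 112 and 96.8 CPM with miR-375 and 82.0 and 87.9 CPM in the controls (0.30 ± 0.050, adjusted p = 1.03e-05). IL6R had 68.7 and 67.5 CPM with miR-375 and 70.4 and 74.4 CPM in the controls and did not pass (−0.089 ± 0.059, adjusted p = 0.286). So the shared chain rose and the ligand fell, the ligand at a trace level. IL27RA had 1.73 and 1.61 CPM with miR-375 and 1.03 and 0.802 CPM in the controls (0.87 ± 0.23, adjusted p = 0.00280, and 0.0678 with limma-voom). IL11 had 2.03 and 2.58 CPM with miR-375 and 1.30 and 1.58 CPM in the controls (0.67 ± 0.20, adjusted p = 0.00884, and 0.139 with limma-voom), and without the first LNCaP control or the second miR-375 library its call ended too (0.0709 and 0.116). IL12A had 1.36 and 1.08 CPM with miR-375 and 0.453 and 0.573 CPM in the controls (1.24 ± 0.42, adjusted p = 0.0186), a call that ended without the first LNCaP control (0.115) or the first miR-375 library (0.119). Both IL11 and IL12A rose in both lines. IL23A, which fell in PC3, had 2.44 and 1.91 CPM with miR-375 and 1.45 and 1.86 CPM in the controls and did not pass (0.39 ± 0.24, adjusted p = 0.242).

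The other calls in LNCaP were of receptors and of IL36RN. IL17RB, the receptor of interleukin-25, was the receptor that fell, with 12.5 and 12.6 CPM with miR-375 and 21.9 and 21.3 CPM in the controls (−0.79 ± 0.12, adjusted p = 1.79e-06). IL17RC had 45.4 and 43.6 CPM with miR-375 and 33.0 and 31.2 CPM in the controls (0.47 ± 0.060, adjusted p = 4.18e-08), and IL17RA 32.8 and 32.5 CPM with miR-375 and 28.7 and 27.3 CPM in the controls (0.22 ± 0.072, adjusted p = 0.0147). IL17RB thus went down while its partner chain IL17RA went up by a small amount. IL4R, the interleukin-4 receptor, had 8.51 and 8.03 CPM with miR-375 and 5.95 and 5.93 CPM in the controls (0.48 ± 0.13, adjusted p = 0.00370, and 0.0766 with limma-voom). IL36RN, the antagonist of the interleukin-36 receptor, had 7.54 and 6.42 CPM with miR-375 and 4.96 and 3.27 CPM in the controls (0.77 ± 0.25, adjusted p = 0.0171), which ended without the second LNCaP control (0.238) or the first miR-375 library (0.173). IL1RAPL1 had 1.17 and 2.10 CPM with miR-375 and 0.816 and 0.802 CPM in the controls (1.01 ± 0.39, adjusted p = 0.0430), and its call ended with DESeq2 (0.0601), limma-voom (0.0890), with a block for the replicate number (0.0558) and in 3 of the 4 fits that left out a LNCaP library (from 0.124 to 0.478). IL1RN had 9.70 and 8.42 CPM with miR-375 and 11.8 and 9.74 CPM in the controls, IL1R1 28.1 and 26.8 CPM with miR-375 and 28.7 and 28.9 CPM in the controls, and IL13RA1 39.2 and 34.6 CPM with miR-375 and 38.4 and 39.4 CPM in the controls; none of the 3 passed. IL32 had 12.8 and 11.6 CPM with miR-375 and 12 and 10.7 CPM in the controls, which overlapped. IL1RAP, outside the name rule, had 6.67 and 5.95 CPM with miR-375 and 12.3 and 12.1 CPM in the controls (−0.95 ± 0.12, adjusted p = 1.89e-08).

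Set side by side, 4 genes rose in both lines (CXCL8, IL11, IL12A and IL17RA). Another 3 rose in PC3 and fell in LNCaP (CXCL1, CXCL5 and IL6). A further 3 fell in PC3 and rose in LNCaP (IL6ST, IL17RC and IL1RAPL1), and no gene fell in both. The same counts over all tested genes were not made, so these numbers describe the listed genes only. Only 4 of the 73 fell in LNCaP, which leaves little room for a fall in both. The test of the difference itself, the PC3 change minus the LNCaP change, passed for 11 of the 73 genes with a higher PC3 change (15.1%, against 15.6% of all tested genes) and 11 with a lower one (15.1%, against 10.9%). Among genes above 5 CPM in both lines, the change was more positive in PC3 for CCL20 (2.28 ± 0.14, adjusted p = 1.40e-15), IL32 (1.36 ± 0.17, 7.12e-08), CXCL16 (1.09 ± 0.11, 4.59e-10) and CXCL8 (0.50 ± 0.062, 5.45e-08). It was more negative in PC3 for IL6ST (−0.82 ± 0.067, 8.19e-12), IL17RC (−0.77 ± 0.079, 6.45e-10), IL6R (−0.69 ± 0.090, 1.28e-07), IL4R (−0.68 ± 0.16, 0.00126) and IL13RA1 (−0.28 ± 0.083, 0.0103). The difference for IL11RA, which passed in neither line, was −0.78 ± 0.27 (adjusted p = 0.0284). The IL11RA call ended in 4 of the 8 fits that left out a library (from 0.0683 to 0.0948), and that of IL13RA1 without the second PC3 miR-375 library (0.0723). At lower levels in 1 or both lines, the change was also more positive in PC3 for CXCL5 (2.95 ± 0.51), CXCL1 (2.91 ± 0.30), CXCL2 (1.14 ± 0.36), IL17RB (0.58 ± 0.19), IL3RA, CCR1 and IL6, and more negative for IL23A (−2.33 ± 0.30), IL33 (−2.71 ± 0.97), IL27RA (−0.73 ± 0.25), IL1RAPL1 (−1.99 ± 0.53) and CXCL10. Several of these calls were not stable. The IL17RB call ended in 7 of the 8 fits that left out a library (from 0.0544 to 0.135), with DESeq2 (0.0656) and with no filter on low counts (0.103), and the IL3RA call in 6 of the 8 (from 0.0512 to 0.110). With limma-voom the calls of CXCL2 (0.129), IL33 (0.143), IL27RA (0.156), CXCL10 (0.262) and CCR1 (0.0786) ended, and with DESeq2 those of CXCL10 (0.215) and CCR1 (0.0723). Leaving out a library also ended the calls of CXCL2 (0.192 without the first LNCaP control and 0.127 without the second LNCaP miR-375 library), IL27RA (0.125 without the second LNCaP control and 0.0649 without the first LNCaP miR-375 library), IL33 (0.198 without the first LNCaP control and 0.650 without the second LNCaP miR-375 library) and IL1RAPL1 (0.0622 without the second LNCaP miR-375 library). The CCR1 difference rested on 6 counts in the first LNCaP control: without it the value was 1.78 (adjusted p = 1.00), against 6.61 with all libraries. In LNCaP, CCR1 had 0 counts in both miR-375 libraries and 0.181 and 0 CPM in the controls, IL3RA had 0.895 and 1.72 CPM with miR-375 and 1.24 and 1.23 CPM in the controls, and IL33 had 0.0542 and 0.277 CPM with miR-375 and 0 and 0.0573 CPM in the controls. CXCL10 had 0 and 0.0475 CPM in PC3 with miR-375 and 0 and 0.260 CPM in the PC3 controls, and its difference turned in sign without the second PC3 control. LNCaP with miR-375 held 0 counts of IL6 and CCR1, so the fitted size of their differences depends on the prior count. IL11, IL12A and IL17RA gave no detectable difference (0.37 ± 0.23, 0.13 ± 0.56 and 0.0089 ± 0.10).

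**Figure D5:**
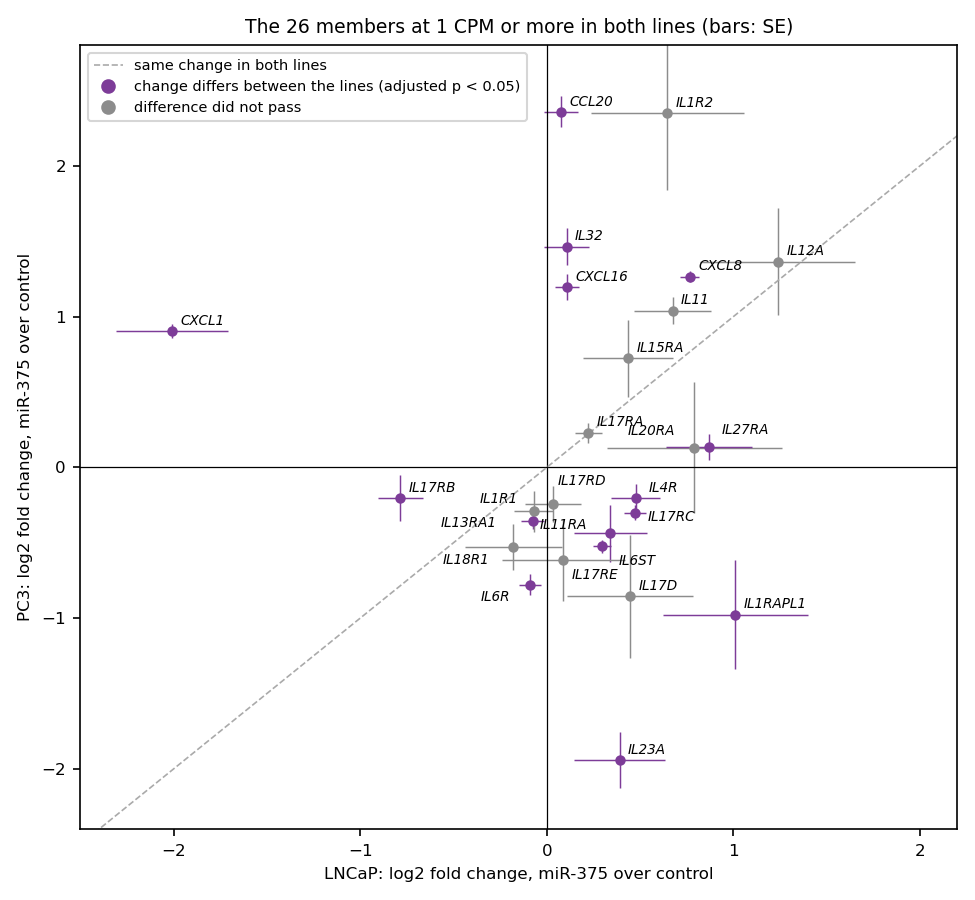
Log2 fold change of miR-375 over control in PC3 (y axis) against that in LNCaP (x axis) for the 26 genes with a mean of 1 CPM or more in a group of each line, with SE bars from edgeR; purple points differ between the lines at an adjusted p under 0.05, and the dashed line marks equal change. CXCL8, IL11, IL12A and IL17RA lie in the upper right, IL6ST, IL17RC and IL1RAPL1 in the lower right, and CXCL1 in the upper left.

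Most of the tested genes differed between the control lines. Between the controls, 44 of the 73 tested genes were higher in PC3 (60.3%, against 39.2% of all tested genes) and 21 lower (28.8%, against 41.2%). A gene high in 1 line only passed the filter on low counts because of that line, so these counts describe the tested genes and support nothing further. A mean of 1 CPM was reached by 51 genes in PC3 with miR-375, 47 in the PC3 controls, 31 in LNCaP with miR-375 and 29 in the LNCaP controls, and by 26 in the PC3 controls only, 8 in the LNCaP controls only and 21 in both. All 6 ELR chemokines were higher in PC3, CXCL8 by 3.75 on the log2 scale, CXCL1 by 6.92 and CXCL6 at least 1643-fold over LNCaP controls with 0 counts. IL1B had 799 and 806 CPM in the PC3 controls and 0.725 and 0.115 CPM in the LNCaP controls (10.92 ± 0.12). IL33, its receptor IL1RL1, IL18, IL37, IL7R and IL31RA were also higher in PC3: each stood at 13.8 CPM or more in both PC3 controls and at 0.121 CPM or less in both LNCaP controls. CCL26 was at least 48.2-fold higher in PC3, IL7 at least 24.4-fold and IL1RAPL2 at least 10.1-fold, all over LNCaP controls with 0 counts. Genes that dampen signalling went both ways. IL37, as given above, was higher in PC3. The decoy IL13RA2 was too, with 0.499 and 0.311 CPM in the PC3 controls and 0.0604 and 0 CPM in the LNCaP controls. IL36G was lower in PC3, with 0.225 and 0 CPM against 0.967 and 0.917 CPM in the LNCaP controls. The antagonists IL1RN and IL36RN were lower in PC3 as well. IL1RN had 0.0998 and 0.363 CPM in the PC3 controls and 11.8 and 9.74 CPM in the LNCaP controls (−5.53 ± 0.31). IL36RN was at least 52.8-fold lower in PC3, where it had 0 counts. CCL8 was at least 21.7-fold lower in PC3, also with 0 counts there. CXCL16 (−2.96), CCL20 (−2.05), IL1R1 (−2.20), IL17RB (−2.27), CCL2 (−5.73) and IL6R (−1.01) were lower in PC3 as well. With miR-375, CCL20 in PC3 reached 34.5 and 32.3 CPM, against 26.9 and 29.8 CPM in LNCaP with miR-375, a comparison that was not tested.

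Genes that act upstream or downstream of these cytokines were counted from lists drawn up with earlier results of the data known. Among all tested genes 22.2% rose and 20.8% fell in PC3, and 13.9% rose and 18.7% fell in LNCaP. The counts of this and each following list are to be read beside these shares, and no excess over them was tested. Of 38 tested cytokines and cytokine receptors outside the name rule 13 rose and 9 fell in PC3 (median 0.16, against 0.022 for all tested genes), and 6 rose and 7 fell in LNCaP (median 0.22, against 0). CSF3, granulocyte colony-stimulating factor, had 303 and 312 CPM in PC3 with miR-375 and 135 and 134 CPM in the controls (1.19 ± 0.047, adjusted p = 8.70e-22), a rise close in size to that of CXCL8. CSF1R also rose in PC3 (1.10 ± 0.41), as did traces of CNTFR, with 0.0476 and 0.142 CPM with miR-375 and 0 counts in both PC3 controls. In LNCaP, KITLG, the stem cell factor gene, had 6.94 and 6.15 CPM with miR-375 and 2.96 and 3.21 CPM in the controls (1.08 ± 0.14), TGFB1 rose (0.99 ± 0.15), and TGFB2 (−1.67 ± 0.47) and TGFBR2 (−1.42 ± 0.29) fell at levels below 1 CPM.

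Of 23 tested genes of interleukin-1 and Toll-like receptor signalling 12 rose and 2 fell in PC3 (median 0.31), and 3 rose and 3 fell in LNCaP (median 0.069). The largest changes in PC3 were of TLR5 (2.04 ± 0.74), TLR3 (1.80 ± 0.35), PELI2, a ubiquitin ligase of the pathway (1.31 ± 0.20), and TLR6 (1.07 ± 0.16), and in LNCaP of IRAK2 (0.74 ± 0.11), PELI2 (0.61 ± 0.15), MAP3K7 (−0.52 ± 0.076) and TAB3 (−0.35 ± 0.060). Of 26 tested NF-kB subunits, kinases and feedback inhibitors 8 rose and 4 fell in PC3 (median 0.091), and 9 rose and 3 fell in LNCaP (median 0.012). MAP3K8 rose (1.05 ± 0.12) and NFKBIB, an inhibitor, rose (0.79 ± 0.10) in PC3, while the kinase genes IKBKB (−0.92 ± 0.077) and MAP3K14 (−0.89 ± 0.11) fell. In LNCaP RELB (0.50 ± 0.14) and MAP3K8 (0.48 ± 0.11) rose, NFKBID fell (−0.73 ± 0.23), and TRAF1 had traces of 0.163 and 0.222 CPM with miR-375 and 0 counts in both controls.

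Of 27 tested JAK, STAT and SOCS genes 8 rose and 7 fell in PC3 (median 0), and 3 rose and 3 fell in LNCaP (median −0.031). STAT3, which carries the signal of interleukin-6 and interleukin-11, had 0 counts in both PC3 miR-375 libraries and in the first PC3 control and 0.0519 CPM in the second, against 169 and 170.4 CPM in LNCaP with miR-375 and 119 and 129 CPM in the LNCaP controls, where it rose (0.46 ± 0.053). In PC3 STAT4 (2.59 ± 0.31) and JAK3 (0.96 ± 0.12) rose, and the feedback inhibitors SOCS2 (−1.12 ± 0.093) and SOCS1 (−0.91 ± 0.20) fell. In LNCaP SOCS3 (−1.24 ± 0.24), PTPN1 (−0.82 ± 0.057) and SOCS4 (−0.48 ± 0.053) fell. Of 14 tested inflammasome and interleukin-processing genes 5 rose and 2 fell in PC3 (median 0.22), with MEFV (2.38 ± 0.62), PYCARD (1.24 ± 0.46), NLRP1 (0.93 ± 0.14) and CASP4 (0.81 ± 0.087) as the largest changes, and 2 rose and 0 fell in LNCaP (median 0.053), CARD8 (0.47 ± 0.14) and CASP4 (0.46 ± 0.10).

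Markers of other cell types moved beside these groups in PC3, and their part in the changes was not tested. The shares of all tested genes given above for the lists apply to the marker counts too. Of 5 tested leukocyte markers 1 rose in PC3 (CSF1R), of 9 fibroblast markers 4 rose and 1 fell, and of 8 endothelial markers 0 rose and 4 fell. The fibroblast sum lay between 398 and 418 CPM in PC3 with miR-375 and between 174 and 186 CPM in the PC3 controls. Most of it was COL1A1 alone, at 373 CPM on average with miR-375 and 139 CPM in the controls. The endothelial sum lay between 229 and 231 CPM in PC3 with miR-375 and between 405 and 406 CPM in the controls. Most of that sum was KDR alone, at 173 CPM on average with miR-375 and 322 CPM in the controls. In LNCaP 0 of the leukocyte markers passed, 2 fibroblast markers rose and 1 endothelial marker fell. The fibroblast sum in LNCaP was 57.7 to 62.6 CPM with miR-375 and 49.0 to 59.1 CPM in the controls, and the endothelial sum 7.86 to 9.0 CPM with miR-375 and 8.34 to 9.25 CPM in the controls. The fibroblast markers DCN, THY1 and FAP were at 0 in both PC3 controls and POSTN in both PC3 miR-375 libraries.

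Few of the genes held a site for the miR-375 seed. The letters searched in the longest annotated 3′ untranslated region (GENCODE v29) were CGAACAA, complementary to seed bases 2 to 8, and GAACAAA, complementary to bases 2 to 7 with an A opposite base 1. Of 92 genes with such a region, tested or not, 11 held a site (12%), against 17% of 14899 tested genes, so the sets are unlike. Of the 36 tested genes not called in PC3 4 held one (11.1%, against 15.2% of all genes not called there). Of the 11 that fell in PC3 2 held one (18.2%, against 22.5% of all genes that fell there), of the 25 that rose 1 (4%, against 14.6%), and of the 4 that fell in LNCaP 1 (25%, against 23.4%). Of the 12 that rose in LNCaP 1 held one (8.33%, against 12.4%). The 4 genes are shown because they changed, with the matching letters in capitals (GRCh38).
IL1RL1 (chr2:102343860-102343881, plus strand): ggtggtaaagtGAACAAAaagg
IL13RA1 (chrX:118792190-118792211, plus strand): tgtgtcaacatGAACAAAtttt
CXCL1 (chr4:73871166-73871187, plus strand): tttctggcttaGAACAAAgggg
IL36RN (chr2:113063789-113063810, plus strand): aggaacttaaaGAACAAAaatc

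IL1RL1 and IL13RA1 fell in PC3, where they stood at 24.4 and 100.1 CPM on average with miR-375 and at 79.1 and 128 CPM in the controls, and neither passed in LNCaP. CXCL1 rose in PC3 and fell in LNCaP, and IL36RN, with 0 counts in PC3, rose in LNCaP. Sites were also present in IL1R1, IL22RA1 and CCL28, which passed in neither line, and in CXCR1, CXCR2, IL5RA and IL17REL, which were not tested. IL23A, IL37, IL6R, IL6ST, IL31RA, IL18R1, IL33, IL17RC and IL1RAPL1, the other genes that fell in PC3, had no match to these letters in the region searched, which says nothing of other sites or transcripts.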

How the data were processed

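RNA was poly(A)-selected, made into strand-marked libraries and sequenced as paired reads of 150 bases, per the labels' protocols. The authors deposited a table of raw read counts per gene for the 8 libraries; fastp, STAR 2.7.1a, featureCounts, DESeq2 and the build hg38 are named in the submitters' processing notes, and how strand and read pairs were handled in counting is not given there. Of 60625 lines, 3 are broken fragments of ANK2 with 279 counts and were left out.

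Genes were taken by the name rule given in the report, with 10 or more summed counts. The genes and the lists were chosen with earlier results of these data known. Counts were fitted over all genes with edgeR 4.0.16 in R 4.3.3 (filterByExpr, TMM, robust quasi-likelihood fit of 4 groups, Benjamini-Hochberg adjustment over 21066 genes, called under 0.05). Every gene called in a miR-375 comparison, or between the lines' responses, with a mean of 1 CPM or more in a group is named. Of these, the 15 with the largest changes in each comparison and those of 5 CPM or more have each library's value, and of each list the 4 largest called changes are named, except 1 gene that is not reported here. Alternatives were DESeq2 1.42.0, limma-voom (limma 3.58.1), scaling to total counts, no filter on low counts, a block for the replicate number, each line fitted alone, counts halved, a minimum of 50 summed counts, and each library left out in turn. The fits were tested on simulated data. Motifs were searched in RefSeq promoter windows (250 bases before to 50 after a start) and seed sites in GENCODE v29 3′ regions. Totals of 33973861 to 41890528 counts per library set the precision, and a count of 0 allows up to 3 counts; both cover counting error only.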

Additional observations from a re-analysis of the deposited data

Results flagged for a closer look

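The change with miR-375 differed between PC3 and LNCaP for 22 of the 73 tested genes by edgeR's test of the difference itself, given as the PC3 change minus the LNCaP change on the log2 scale. Of the 73, 15.1% had a higher PC3 change, against 15.6% of all tested genes, and 15.1% a lower one, against 10.9%. The change was higher in PC3 for IL6 (8.88), CCR1 (6.61), CXCL5 (2.95), CXCL1 (2.91), IL3RA (2.89), CCL20 (2.28), IL32 (1.36), CXCL2 (1.14), CXCL16 (1.09), IL17RB (0.58) and CXCL8 (0.50). It was lower in PC3 for CXCL10 (−3.61), IL33 (−2.71), IL23A (−2.33), IL1RAPL1 (−1.99), IL6ST (−0.82), IL11RA (−0.78), IL17RC (−0.77), IL27RA (−0.73), IL6R (−0.69), IL4R (−0.68) and IL13RA1 (−0.28). The sizes for IL6 and CCR1 depend on the prior count, since LNCaP with miR-375 had 0 counts of both, and are no bounds. Without the first LNCaP control, which held all 6 LNCaP counts of CCR1, the CCR1 difference was 1.78 (edgeR adjusted p = 1.00). CXCL10 and IL3RA stood below 1 CPM in every PC3 library, and IL33, IL6, CCR1, CXCL2 and CXCL5 in every LNCaP library. CXCL1 stood below 1 CPM in both LNCaP libraries with miR-375.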

How the results depend on the processing

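Of the 34 genes of 1 CPM or more that changed in PC3, 24 kept their call under every alternative, and 6 of 13 did in LNCaP, 12 of 22 for the difference between the lines and 48 of 53 between the control lines. Leaving out each library in turn gave 20 to 25 higher and 11 to 14 lower genes in PC3, 7 to 12 and 3 to 6 in LNCaP, 8 to 11 and 9 to 11 for the difference, and 43 to 45 and 17 to 22 between the control lines. The count of 7 higher genes in LNCaP came without the first LNCaP control. With counts halved and rounded up, 17 genes were lower in PC3, against 11. DESeq2 called 22 higher and 10 lower in PC3 and 9 and 4 in LNCaP. Without the second PC3 control the difference for CXCL10 turned to 1.69 (edgeR adjusted p = 0.687), against −3.61 with all libraries, and over single libraries left out it ran from −6.62 to 1.69; the cause was not tested. For the difference, calls also ended without single libraries for CCR1, CXCL2, IL11RA, IL13RA1, IL17RB, IL1RAPL1, IL27RA, IL33 and IL3RA, and for IL33 the value was −1.23 (adjusted p = 0.650) without the second LNCaP miR-375 library. Same-numbered libraries showed almost no joint deviation (correlations of 0.018 in LNCaP and 0.010 in PC3). With 2 libraries per group each gene gives only 1 deviation, which includes counting error. The correlations therefore do not settle whether the replicate numbers pair the samples. With the replicate number as a block, 25 genes were higher and 11 lower in PC3, 12 and 5 in LNCaP, 12 and 11 for the difference, and 43 and 16 between the control lines, against 44 and 21, where CXCR4, IL11RA, IL12A, IL15RA and IL17D lost their calls. Genes near or below 1 CPM, among them most chemokine receptors, rest on few counts, and changes there were detectable only where large.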
